A study of Mus musculus with 9 samples.

Results

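Ddn, Ncdn, Fam81a and Dok6 are 4 genes of forebrain neurons, picked from the 12275 genes of the series because of their difference between avoiding and balancing mice. Their rows were found by matching the Ensembl identifier of each row to its mouse symbol. All 4 were among the 9872 genes listed for the comparison of balancing (BA) with avoiding (AV) mice. For the comparison of BA with approaching (AP) mice, 3 of the 4 were among 11820 listed genes, and Fam81a was not listed there. Low counts had been filtered out before deposit, and an unlisted gene has no value here. Being unlisted need not mean a low signal. Of 12 immediate early genes 0 were listed with AV mice. Yet 1 of them, Fos, read 4713, 2338 and 1526 in BA replicates 1, 2 and 3 beside AP mice.

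The series measured RNA of neurons that carry yellow fluorescent protein, sorted from the dissociated amygdala of 9 mice, with 1 library for each mouse. All of them were B6.Cg-Tg(Thy1-YFP)HJrs/J animals, in which a Thy1 promoter drives the fluorescent protein in pyramidal neurons of the amygdala, hippocampus and cortical layer 5, and to a lesser extent in some other neurons, so that BA mice carry the transgene as well. From the behavior of untreated mice in an approach/avoidance conflict task, 3 mice were taken as BA, 3 as AV and 3 as AP, and tissue was collected 1 month after the task. Mice of a group were not siblings, and age and sex were not given in the sources used here. In the study 1 AV mouse was dropped as an outlier. AV replicate 2 was not analysed here, so the AV group held 2 mice, and the same 3 BA mice served both comparisons.

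These genes code for proteins that neurons use at dendrites and synapses. Dendrin, the product of Ddn, sits at the postsynaptic side and binds scaffold and cytoskeleton proteins, and its mRNA is carried into dendrites. Neurochondrin, from Ncdn, lies in the cell body and neurites, binds group I metabotropic glutamate receptors and holds down CaM kinase II. Fam81a encodes a protein of the postsynaptic density. Dok6 encodes an adaptor that docks on the activated receptor tyrosine kinases Ret and TrkC and promotes neurite growth.

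In the GENCODE M21 annotation of GRCm38, all 4 are protein-coding genes on the minus strand. Ddn (ENSMUSG00000059213.7) spans chr15:98803777-98809490, and an antisense gene, B130046B21Rik, begins inside it at position 98807024 on the plus strand and covers part of a Ddn exon. B130046B21Rik was listed in neither table, the libraries were stranded, and whether strand was used in counting is not given in the sources used here. Ncdn (ENSMUSG00000028833.13) spans chr4:126743750-126753438, and Fam81a (ENSMUSG00000032224.15) spans chr9:70088511-70142560. Dok6 (ENSMUSG00000073514.4) is described with its values.

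The 2 members that sit on different scales of change, Ncdn and Fam81a, have promoter windows in RefSeq on GRCm38.p6, shown here to let their start regions be compared. Only the bases that no annotated exon covers are printed, 5′ to 3′ on the minus strand. The Ncdn stretch, chr4:126753439-126753543, is the whole 105-base gap between Ncdn and AU040320, a gene that runs the opposite way, and capitals mark CCAAT boxes read on the other strand.
Ncdn: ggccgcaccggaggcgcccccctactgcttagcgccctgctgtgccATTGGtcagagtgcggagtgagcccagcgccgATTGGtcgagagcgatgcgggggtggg
Fam81a: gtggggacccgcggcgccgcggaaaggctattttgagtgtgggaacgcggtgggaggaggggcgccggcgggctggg
The Fam81a stretch, chr9:70141579-70141655, is 77 bases long and lies between 2 annotated Fam81a exons. Both were rich in G and C, with 70.5% for Ncdn and 74% for Fam81a, beside medians of 54.3% and 55.8% over windows of the same lengths before 32851 RefSeq starts. Each held 10 CpG dinucleotides, where the medians were 3 and 2. On both strands, 4 motifs that do not overlap here were searched, namely the E-box CANNTG, the cyclic AMP half-site TGACG, the GC box GGGCGG and the CCAAT box CCAAT. The Ncdn stretch held 2 CCAAT boxes, which start 59 and 27 bases before the exon, and 19.5% of windows of 105 bases held at least 1. No other match was found in either stretch, and at 105 bases 36.1%, 10.8% and 25.2% of windows held an E-box, a half-site or a GC box. A match describes letters only.

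The deposited values are a normalized signal, and a gene is named as called where limma on log2(signal + 1) gave a Benjamini-Hochberg adjusted p under 0.05 over its whole table. In BA vs AV, 29.7% of all listed genes were called. Those with a higher signal in AV mice made up 13.6% and those with a lower one 16.2%. Called genes made up 0.00846% in BA vs AP, which is 1 gene, lower in AP mice. There 7.77% had an unadjusted p under 0.05, 4.99% of all genes with a higher signal in AP mice. The comparisons were normalized separately and may differ in batch correction, so their shares of called genes cannot be set against each other. The sorted cells were checked against markers before the members were described. Of 27 forebrain excitatory neuron genes, 10 were listed in each table, and Slc17a7, Slc17a6, Neurod6, Tbr1 and Emx1 were listed in neither. Of 19 genes that mark neurons in general, 6 were listed in BA vs AV and 7 in BA vs AP, with Snap25, Syt1, Rbfox3 and Thy1 in neither. Oligodendrocyte genes held 5.55% to 6.52% of the summed signal of each BA mouse in BA vs AV, beside 0.0224% to 0.0256% for the listed forebrain genes. Many defining markers of the labelled cell type were thus without a value, and fewer cells of a type and less RNA per cell cannot be told apart in these libraries.

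AV mice, when set against BA mice, showed this pattern: Ddn, Fam81a and Dok6 were far higher and Ncdn was moderately higher. The dendrin gene Ddn read 26.2, 28.4 and 21.5 in BA replicates 1, 2 and 3, and 479.7 and 1709.8 in AV replicates 1 and 3. The means were 25.4 ± 3.52 (SD, n = 3) and 1095 ± 869.7 (SD, n = 2), 43.2-fold apart, and the log2 fold change was 5.11 with a standard error of 0.51. The ranges of the groups lay far apart for dendrin, and the 2 AV mice differed from each other by 3.56-fold, past the 95th percentile of all listed genes, 3.48. These genes were chosen for this very difference, so their values in BA vs AV are a description and carry no test.

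Fam81a, the postsynaptic density gene, read 9.81, 14.4 and 19.4 in the BA mice and 269.8 and 378 in the AV mice. The means were 14.5 ± 4.78 (SD, n = 3) and 324 ± 76.7 (SD, n = 2), 22.3-fold apart, with a log2 fold change of 4.41 and a standard error of 0.33. Fam81a varied most of the 4 among BA mice, where the highest was 1.98 times the lowest, while the AV mice differed by 1.40-fold, close to the all-gene median of 1.30.

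The adaptor gene Dok6 is the longest of the members at chr18:89292424-89769528, with 3 processed pseudogenes and 1 miRNA gene annotated inside its span. It read 39.2, 39.4 and 44.4 in BA mice and 506 and 1266 in AV mice. Its means of 41.0 ± 2.95 (SD, n = 3) and 886 ± 537 (SD, n = 2) were 21.6-fold apart, and the log2 fold change was 4.26 with a standard error of 0.39. Dok6 was the steadiest of the 4 among BA mice, the highest being 1.13 times the lowest, whereas the AV mice differed by 2.50-fold.

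Ncdn read 375, 498 and 359.7 in BA mice and 1005 and 1171 in AV mice. The means were 411 ± 75.4 (SD, n = 3) and 1088 ± 117 (SD, n = 2), 2.65-fold apart, with a log2 fold change of 1.41 and a standard error of 0.25. The neurochondrin gene thus did not share the size of difference of the other 3: ordered by log2 fold change among 9872 genes, Ddn, Fam81a and Dok6 stood at places 1, 3 and 5, and Ncdn at place 729.

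All 4 members had BA and AV ranges that did not overlap, as had 27.7% of all listed genes in the same direction. In every one of the 4, AV replicate 3 was above AV replicate 1. The BA mice of BA vs AV fell in no common order. Replicate 3 was lowest for Ddn and Ncdn and highest for Fam81a and Dok6. In BA vs AP the same BA mice rose from replicate 3 through 1 to 2 for Ddn, Ncdn and Dok6 alike. Dok6 spanned only 46.1 to 49.1 among them. Leaving out AV replicate 1 gave log2 fold changes of 6.03 for Ddn and 4.92 for Dok6, and leaving out AV replicate 3 gave 4.20 and 3.60.

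**Figure D1:**
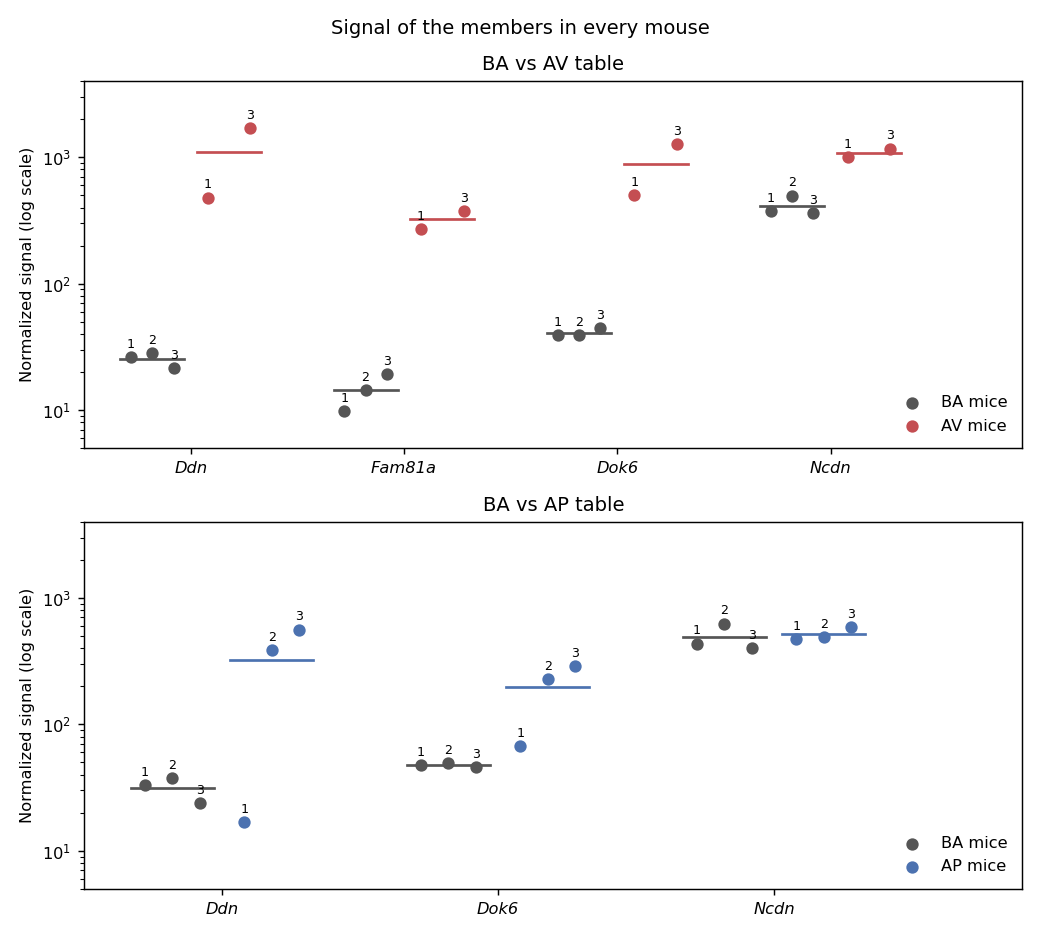
Normalized signal on a log axis for each member in each mouse, with replicate numbers above the points and bars at group means. In the upper panel the 2 AV mice lie above the 3 BA mice for all 4 genes, and in the lower panel AP replicate 1 lies with or near the BA mice for Ddn and Dok6 while AP replicates 2 and 3 lie above them.

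Per kilobase of exon, which allows genes to be compared, the members started from very different levels. In BA mice of BA vs AV, Ncdn had a signal of 111 per kb, above the all-gene median of 29.6, while Ddn had 6.71, Fam81a 3.31 and Dok6 2.97. Of all listed genes, 11% lay at or below the level of Ddn, 4.49% at or below that of Fam81a and 3.85% at or below that of Dok6, so the last of these were among the lowest of the table. Over the AV mice Ddn averaged 289.5 per kb, Ncdn 293, Fam81a 73.7 and Dok6 64.2, all above the median of 30.3. These averages cover unlike mice, since Ddn was at 127 per kb in AV replicate 1 and 452 in AV replicate 3, below and above Ncdn at 271 and 316. Fam81a and Dok6 likewise changed places, with 61.4 and 36.7 per kb in AV replicate 1 and 86 and 91.7 in AV replicate 3.

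**Figure D2:**
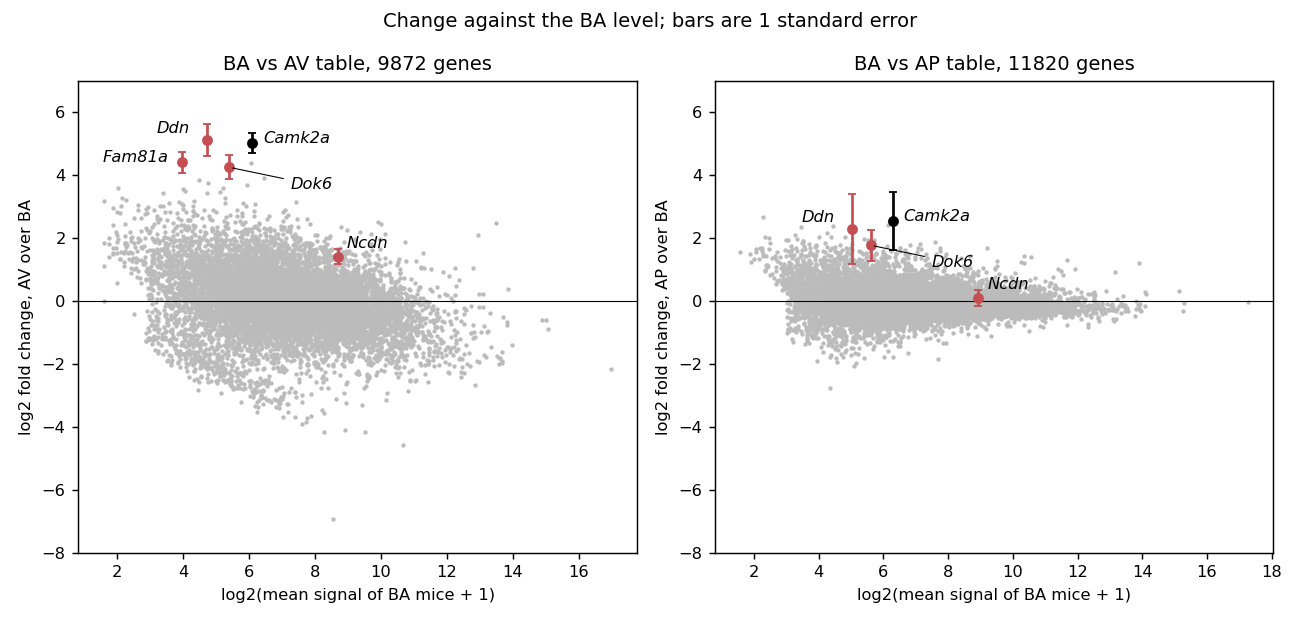
Log2 fold change of every listed gene (grey) against its BA level on a log2 axis, with the members in red, Camk2a in black and bars of 1 standard error. In BA vs AV, Ddn at 5.11, Fam81a at 4.41 and Dok6 at 4.26 stand at the upper edge from low BA levels, and Ncdn at 1.41 starts from a high one.

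AP mice gave a second view of 3 of the members. The BA mice had a part in choosing the members, and whether the AP mice had one is not known here. Ddn read 32.9, 37.9 and 24.1 in BA mice and 16.8, 385 and 562 in AP replicates 1, 2 and 3. AP replicate 1 was below every BA mouse, and the other two AP mice were well above them, so the groups overlapped. The Ddn mean was 31.6 ± 6.99 (SD, n = 3) in BA and 321 ± 278 (SD, n = 3) in AP mice. The log2 fold change was 2.29 with a standard error of 1.11 and a 95% interval of -0.25 to 4.83, and did not pass the test (limma, adjusted p = 0.683).

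Dok6 read 47.8, 49.1 and 46.1 in BA mice and 67.9, 230.1 and 292 in AP mice. Every AP mouse was above every BA mouse, as for 5.64% of all listed genes, with AP replicate 1 only slightly so. The means were 47.7 ± 1.51 (SD, n = 3) and 197 ± 116 (SD, n = 3). The Dok6 log2 fold change was 1.78 with a standard error of 0.49 and a 95% interval of 0.66 to 2.89, with an unadjusted p of 0.00594 that did not pass after adjustment over the table (limma, adjusted p = 0.392).

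Ncdn read 436, 627 and 403 in BA mice and 475, 488 and 591 in AP mice, so all AP mice fell inside the BA range. The means were 489 ± 121 (SD, n = 3) and 518 ± 63.8 (SD, n = 3), and the log2 fold change was 0.11 with a standard error of 0.25 (limma, adjusted p = 0.919). The interval of -0.46 to 0.67 leaves room for a moderate difference of either sign in the Ncdn level.

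The spread among AP mice separated the genes. The highest AP mouse exceeded the lowest by 33.5-fold for Ddn and 4.29-fold for Dok6, both past the 95th percentile of all listed genes at 3.84, and by 1.245-fold for Ncdn, under the median of 1.54. Without AP replicate 1 both genes passed the test: Ddn had a log2 fold change of 3.86 (limma, adjusted p = 0.0152) and Dok6 of 2.42 (limma, adjusted p = 0.0231). With any other mouse left out neither passed. AP replicate 1 was set apart here by these values and not by its label, so the result without it does not stand for AP mice.

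**Figure D3:**
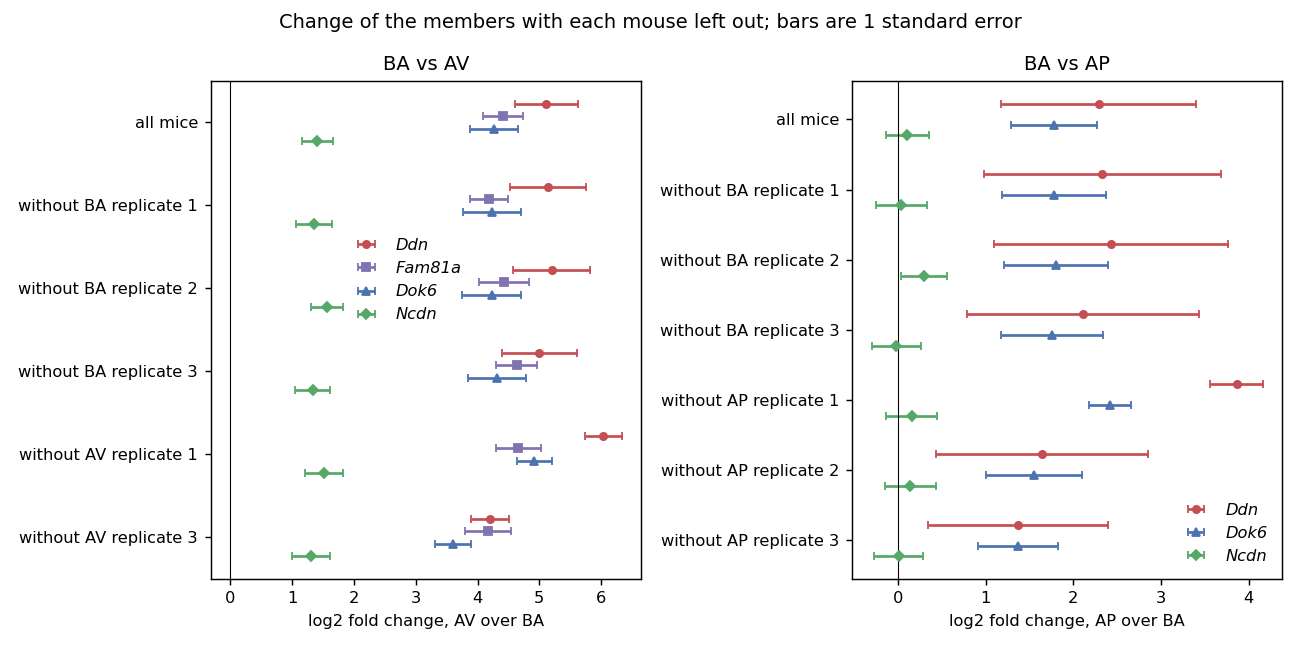
Log2 fold change of each member with all mice and with each mouse left out in turn, with bars of 1 standard error. In BA vs AP, Ddn moves from 2.29 to 3.86 and Dok6 from 1.78 to 2.42 without AP replicate 1, and Ncdn stays between -0.02 and 0.30.

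The BA vs AP values still lie on steps of 1 read for most low genes, so the reads behind each member could be read back. All values of the 3 listed members came out whole within a tolerance of 0.02 reads. For Ddn the BA mice held 29, 35 and 18 reads and the AP mice 13, 540 and 518. For Dok6 they held 43, 46 and 36 reads against 58, 322 and 268. The 13 Ddn reads of AP replicate 1 have an exact Poisson 95% interval of 6.92 to 22.2, which overlaps that of the 18 reads of BA replicate 3, 10.7 to 28.4. The 518 reads of AP replicate 3 have one of 474 to 565, and all such intervals cover counting error only. Ncdn rested on 327 to 610 reads in BA and 416 to 686 in AP mice. Read back over all listed genes, AP replicate 1 held 4158078 reads and the other mice 3817186 to 6720901, the most in AP replicate 2. These totals apply the step to every value, though not all low values lay on whole steps. The part of depth in the values was not tested. Reads were not read back in BA vs AV, and the depth there is unknown.

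Ratios inside a mouse do not depend on a factor that scales a whole mouse. The lowest value of BA vs AP, 2 in every mouse, was not subtracted first, so ratios with low genes there are rough. The signal of Ddn over that of Ncdn was 0.0571 to 0.0697 in BA mice, and 0.478 and 1.46 in AV mice. Set against AP mice, it was 0.0597 to 0.0755 in BA mice, and 0.0353, 0.788 and 0.951 in AP replicates 1, 2 and 3. Dok6 over Ncdn followed the same split, with 0.0791 to 0.123 in BA mice, 0.504 and 1.08 in AV mice, and 0.143, 0.472 and 0.493 in AP mice. Ddn also outran Dok6: their ratio was 0.484 to 0.721 in BA mice and 0.948 and 1.35 in AV mice, and among AP mice it was 0.247, 1.67 and 1.93 beside 0.522 to 0.771 in BA mice. The genes therefore did not keep 1 ratio across mice.

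Against Camk2a, the alpha subunit of CaM kinase II and a marker of forebrain excitatory neurons, the members differed from one another. The Ddn to Camk2a ratio was 0.314 to 0.473 in BA mice and 0.290 and 0.577 in AV mice, so the groups overlapped. Among the mice of BA vs AP it was 0.347 to 0.507 in BA mice and 0.218, 0.456 and 0.401 in AP mice. The ratio of Ncdn to Camk2a was 5.26 to 6.78 in BA mice and 0.607 and 0.395 in AV mice, and 6.17 in AP replicate 1 but 0.579 and 0.422 in the other two AP mice. Dok6 over Camk2a was 0.510 to 0.708 in BA mice and 0.306 and 0.427 in AV mice, and in AP replicates 1, 2 and 3 it was 0.882, 0.273 and 0.208. Fam81a over Camk2a was 0.177 to 0.283 in BA mice and 0.163 and 0.128 in AV mice, so neither ratio overlapped between BA and AV mice. Camk2a itself had a log2 fold change of 5.04 in BA vs AV and 2.55 in BA vs AP (limma, adjusted p = 0.545), with 66, 1187 and 1294 reads in the AP mice.

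A search over genes with a mean of at least 100 in 1 group named those whose profile over the mice was most like each member, by the root mean square difference of log2(signal + 1) after centring on the BA mean. Over 5 mice and 6705 genes of BA vs AV, Camk2a was closest to Ddn at 0.366 and Dok6 came after it at 0.595. Dok6 was also the closest to Fam81a at 0.370, and Rap1gap2 was among the 3 closest at 0.427. The nearest profile to Dok6 was that of Bsn, the presynaptic scaffold bassoon, at 0.321, and Psd was among the 3 closest at 0.363. Among the members themselves in BA vs AV, on which they were chosen, Ddn, Fam81a and Dok6 each ranked within the first 12 for one another, and Ncdn did not come before place 465 for any.

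The nearest profiles to Ncdn came from other kinds of genes. They were Ndufa3 at 0.101, a subunit of respiratory complex I, 1700025G04Rik at 0.107 and Rpl19, a ribosomal protein gene, at 0.107. Over 6 mice and 7390 genes of BA vs AP, Camk2a was again closest to Ddn at 0.393, before Rims1, an active zone gene, at 0.494 and Nrgn, which encodes the postsynaptic calmodulin binder neurogranin, at 0.516. Nrgn had 3 reads in AP replicate 1, which is the limit of what a gene without reads can be told from. There Dok6 stood at place 14 for Ddn, while Ddn stood at place 465 for Dok6, with a difference of 1.01 between the 2 profiles. Dok6 was nearest to Camk2n1 at 0.356, Mt3 and Mmd, and Ncdn to Pdk3 at 0.0681, Rtraf and Got2. The profiles share libraries and few mice, and these likenesses are descriptions.

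The relatives and partners of each member came from lists of what the proteins are known for. Among the Dok family and Fam81b, a list of 8 genes with Dok6 in it, 4 were listed in BA vs AV. Of all genes listed there, 13.6% were called higher and 16.2% lower. Dok7, the activator of the muscle receptor kinase MuSK, was higher at 0.72 ± 0.22 (log2 fold change ± SE, limma, adjusted p = 0.0468), and Dok4 was higher at 1.28 ± 0.32 (limma, adjusted p = 0.0259) from a mean of only 4.46. Dok3, an adaptor of blood cells, was lower at -1.22 ± 0.28 (limma, adjusted p = 0.0185), also at a low signal, 9.30 in BA and 3.56 in AV mice. Neither Dok3 nor Dok7 was called in BA vs AP, with log2 fold changes of 0.30 and -0.17, and Dok4 was not listed.

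Of the receptors and ligands that Dok6 serves, few could be followed. Ret, Ntrk3, Gfra2, Gdnf and Ntf3 were listed in neither table. Gfra1, the GDNF co-receptor, had log2 fold changes of 0.26 in BA vs AV and -0.26 in BA vs AP and was called in neither. Ntrk2, the BDNF receptor of the same kinase family, rose from 1240.0 to 3114 in AV mice (log2 fold change 1.26 ± 0.30 SE, limma, adjusted p = 0.0226), and was not called in AP mice (0.67, limma, adjusted p = 0.711).

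Of 11 partners of dendrin, 9 were listed in BA vs AV, where 3 were called higher and 1 lower. Over all listed genes the shares were 13.6% and 16.2%. Magi3, a membrane scaffold, was higher at 1.69, Actn1, which cross-links actin, at 1.40 and Synpo, the spine apparatus protein synaptopodin, at 0.85 on the log2 scale (limma, adjusted p = 0.0272, 0.0251 and 0.0385). Cd2ap, an adaptor that dendrin meets in kidney podocytes, was lower at -1.19 (limma, adjusted p = 0.0206). Magi2, a synaptic scaffold that binds dendrin, had a log2 fold change of -0.15, and Magi1 of -0.71, and neither was called. The median of the 9 was -0.15, beside -0.03 for all listed genes. For AP mice 9 were listed and none was called in either direction by limma, with 0 at an unadjusted p under 0.05.

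Of 9 partners of neurochondrin 5 were listed in BA vs AV, with a median log2 fold change of 0.70, and Camk2a at 5.04 and Grm5, a group I metabotropic glutamate receptor gene, at 2.07 ± 0.26 SE (limma, adjusted p = 0.00366) were called higher. Camk2d, Camk2g and Prex1 had log2 fold changes of 0.70, 0.39 and 0.07 and were not called. The shares called over all listed genes were 13.6% higher and 16.2% lower. For AP mice 6 were listed and none was called, and 1, Camk2a, had an unadjusted p under 0.05. Mchr1 and Camk2b were listed in neither table.

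The wider groups to which the members belong were also higher in AV mice, and so were genes of neurons in general. Of all listed genes 13.6% were called higher and 16.2% lower. Among 46 genes of the postsynaptic density 31 were listed, 22 were called higher and 1 lower, and the median log2 fold change was 1.46. Dlg4, the main scaffold PSD-95, was higher at 2.73 and Shank2 at 3.60, and the AMPA receptor gene Gria4 was lower at -1.07 (limma, adjusted p = 0.00288, 0.00278 and 0.0276). Of 16 genes with mRNA in dendrites 12 were listed, 11 were called higher, and the median was 2.44. All 10 listed forebrain excitatory genes were called higher, with a median of 2.29, Nrgn at 3.08 and the transcription factor Mef2c at 2.90 among them. Of the 6 listed genes that mark neurons in general 4 were called higher, with a median of 2.12, Map2 at 2.51, Elavl4 at 2.38 and Eno2 at 2.22 among them, and Elavl3 at -0.62 was not called. The lists share members such as Camk2a and were written with earlier results of these data known.

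In AP mice the same lists gave no call by limma. Over all listed genes, 7.77% had an unadjusted p under 0.05, and 4.99% had one with a higher signal in AP mice. Of 36 listed postsynaptic density genes 4 had an unadjusted p under 0.05, all higher, and the median was 0.38. For 14 dendritic mRNAs 2 did, with a median of 0.69, and for the 10 forebrain genes 3 did, with a median of 1.09. Of 7 general neuron genes none did, with a median of 0.60. Among AP mice the forebrain list rose in the same order as Ddn and Dok6. Its median lay at -0.02, 1.02 and 2.08 in AP replicates 1, 2 and 3, counted from the BA mean on the log2 scale. Within AV mice the order was reversed: the list lay at 2.50 in AV replicate 1 and 2.10 in AV replicate 3. Ddn and Dok6 were higher in AV replicate 3.

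**Figure D4:**
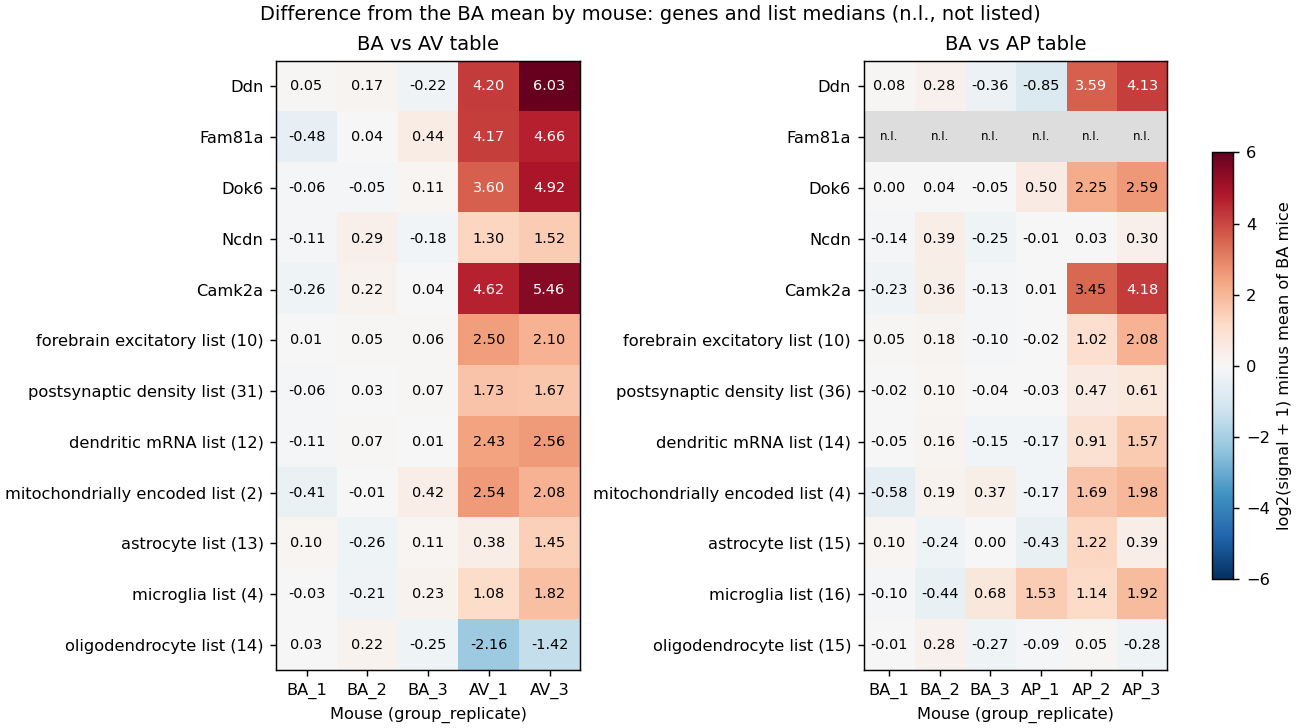
Difference of log2(signal + 1) from the BA mean for each mouse, for the members and Camk2a and as the median over each gene list, with the number of listed genes in brackets and grey for an unlisted gene. Ddn and Dok6 are at -0.85 and 0.50 in AP replicate 1 but at 3.59 and 2.25 in AP replicate 2 and 4.13 and 2.59 in AP replicate 3, and the forebrain list is at -0.02, 1.02 and 2.08.

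Markers of other cells differed between the groups as well, not all in the direction of the members. For comparison, 13.6% of all listed genes in BA vs AV were called higher and 16.2% lower. The 14 listed oligodendrocyte genes made up 5.55% to 6.52% of the summed signal in BA mice and 1.83% and 2.70% in AV mice, with 11 called lower and 1, the precursor gene Pdgfra, higher. Their share was 5.42% to 6.21% in BA mice of BA vs AP and 5.29% to 6.37% in AP mice, so it did not follow Ddn or Dok6 there. Astrocyte genes made up 0.324% to 0.501% in BA and 1.06% and 1.95% in AV mice, with 5 of 13 called higher, and in AP replicates 1, 2 and 3 they made up 0.279%, 1.28% and 0.750%, beside 0.323% to 0.465% in BA mice. The part of these shifts in the values of the members was not tested.

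Microglia genes were high in all AP mice, at 0.159%, 0.120% and 0.207% of the summed signal beside 0.0457% to 0.0938% in BA mice, and so did not single out AP replicate 1. Of 16 listed microglia genes 0 were called by limma and 15 had an unadjusted p under 0.05, beside 7.77% of all listed genes. In BA vs AV 4 of 17 were listed and 3 were called higher, beside 13.6% of all listed genes. The listed mitochondrially encoded genes made up 0.217% to 0.444% in BA mice and 2.30% and 1.67% in AV replicates 1 and 3, in the opposite order to Ddn and Dok6 within AV mice, and 0.383%, 1.54% and 1.74% in AP replicates 1, 2 and 3 beside 0.290% to 0.558% in BA mice. The 5 listed inhibitory neuron genes had a median log2 fold change of 0.85 in BA vs AV. Erbb4 was called lower at -0.73, while Reln at 1.24, Nxph1 at 1.18 and Dlx1 at 0.85 were not called. The part of these genes in the result was not tested either.

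Of the 8 listed genes nearest to the members on the chromosome in BA vs AV, 1 was called higher and 1 lower. Over all listed genes the shares were 13.6% and 16.2%. Ddn lies 3306 bases from Prkag1, which had a log2 fold change of 0.03 in BA vs AV, and 40562 bases from Arf3, an ADP-ribosylation factor gene, which was called higher at 2.46 ± 0.28 SE (limma, adjusted p = 0.00328). Prkag1 and Arf3 had 0.25 and 0.35 in BA vs AP and were not called. Rttn, the nearest listed gene before Dok6, was called lower in AV mice at -1.53 (limma, adjusted p = 0.0066), and Bnip2 and Myo1e on either side of Fam81a had 0.53 and -0.55 and were not called.

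AU040320, which starts across the 105-base stretch printed above from Ncdn, went the other way from it. It read 317, 345 and 307 in BA mice and 115 and 237 in AV mice, so the groups did not overlap, and its log2 fold change of -0.96 ± 0.33 SE did not pass the test (limma, adjusted p = 0.0674). Beside AP mice it read 363, 417 and 351 in BA mice and 391, 298 and 198 in AP mice, with a log2 fold change of -0.40 (limma, adjusted p = 0.732), while Ncdn stood at 0.11.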

How the data were processed

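RNA of sorted amygdala neurons was sequenced in 9 mice, 3 in each group by the labels. The values that the authors deposited are a normalized signal per gene for single mice, in 2 tables, made by TMM normalization after a filter on low counts, with batch correction by ARSyN. It is not stated which of the tables went through ARSyN. The submitters' processing notes name bcl2fastq 2.20, Salmon 1.2 and GRCm38.p6. BA vs AV holds 3 BA and 2 AV mice, and BA vs AP holds 3 BA and 3 AP mice. The tables were normalized separately, and each was fitted alone. Summed signal was 3267967 to 3974274 per mouse in BA vs AV and 4589304 to 5072766 in BA vs AP. In BA vs AP the lowest value was 2 in every mouse and 79.1% to 87.3% of low values lay within 0.02 reads of a whole step of 0.708 to 1.23, too few for a count test. A gene with 3 reads had a level of 4.13 to 5.68.

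Identifiers were matched to symbols for 9871 of 9872 and 11778 of 11820 rows, and levels per kb used the GENCODE M21 exon union. The main test was limma 3.58.1 (R 4.3.3), two-sided and without covariates, on log2(signal + 1) for one table at a time, with Benjamini-Hochberg adjustment over that table. The fold on this scale understates changes of low genes. The fit was tested on simulated data. NOISeq, the tool of the study, was not used here. Mice are the replicates, and p-values measure the spread between them in the deposited values. Where a table went through batch correction, this is only the spread left after it, and the effect on the calls was not tested. A few genes that these rules name are not reported here. Promoter windows came from RefSeq for 2 of the 3 members looked up.

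The members and lists were chosen with earlier results of these data known. Named genes are the members, their relatives and partners, the gene of each other list with the largest change in a direction and a group mean of 20 or more, the 3 most alike genes with one of 100 or more, and the nearest listed neighbours. Other genes of lists, Thy1 and the remaining unlisted markers, Dlg4, Shank2, Nrgn, Mef2c, Elavl4, Eno2, Nxph1 and Dlx1 among them, and the motifs were named after values were seen. Alternatives were a pseudocount of 4, a minimum group mean of 10, centring on the median, a variance prior that follows mean expression, the lowest value subtracted, each mouse left out and the replicate number as a block.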

Additional observations from a re-analysis of the deposited data

How the results depend on the processing

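The log2 fold changes of the 4 members in BA vs AV kept their direction under all alternatives run, with a range over left-out mice of 4.20 to 6.03 for Ddn, 1.30 to 1.56 for Ncdn, 4.17 to 4.66 for Fam81a and 3.60 to 4.92 for Dok6. Leaving out an AV mouse leaves 1, which is assumed to vary like the BA mice. In BA vs AP, Ddn ranged from 1.37 to 3.86 and Dok6 from 1.37 to 2.42 over left-out mice. Both passed the test without AP replicate 1 and under no other alternative. The Ncdn change turned to -0.02 without BA replicate 3 (limma, adjusted p = 0.988), within a range of -0.02 to 0.30. Of all genes 2934 were called in BA vs AV, and 1521 to 3497 with a mouse left out, lowest without BA replicate 2. The 1 call in BA vs AP became 0 with a pseudocount of 4, 10 with a variance prior that follows mean expression, 2 with the lowest value subtracted and 0 to 15 with a mouse left out, highest without AP replicate 1. The 23 postsynaptic density calls in BA vs AV were 17 to 23 with a mouse left out. The 0 calls of that list and of the forebrain list in BA vs AP were 0 to 1. The cause of these changes was not tested.

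Mice of different groups share only a replicate number. Deviations of same-numbered mice from their group means correlated at -0.0604 and -0.0389 in BA vs AV and 0.0202, 0.121 and 0.0813 in BA vs AP. With the replicate block 970 genes were called in BA vs AV, 15 of the postsynaptic density list, and 0 in BA vs AP. The members stood at 5.20 for Ddn, 1.56 for Ncdn, 4.43 for Fam81a and 4.23 for Dok6, and in BA vs AP at 2.29, 0.11 and 1.78 for Ddn, Ncdn and Dok6 (limma, adjusted p = 0.578, 0.905 and 0.331).

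With 2 or 3 mice a group, and depth unknown in BA vs AV, the size of a difference is known only roughly. Centring each mouse on its median moved the median of all genes by -0.08 in BA vs AV and -0.03 in BA vs AP and changed no direction of a member.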
